A study of Mus musculus with 6 samples.

Results

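Collagens and the enzymes that modify and crosslink them were followed in the mouse line SC4, Schwann cells from an Nf2-null schwannoma (a nerve sheath tumour), after knockdown of the transcriptional co-activator YAP. The genes were taken by symbol: every row named Col, digits, a, digits, which gave 44 collagen genes, and 9 named genes, the lysyl oxidases Lox and Loxl1 to Loxl4, the lysyl hydroxylases Plod1 to Plod3 and the collagen chaperone Serpinh1. Of these 53 genes among 23366 in the table, 37 (28 of them collagens) had a mean over all libraries of at least 10 normalized counts and are described here. The 16 others had means between 0 and 7.55 (Col23a1). The nearest below the limit were Col23a1 at 7.55 and Col2a1 at 6.20, and the nearest above it Col9a3 at 12.4 and Col6a4 at 14.1.

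All cells were SC4, so every library of both groups is Nf2-null, and RNA was taken 48 hours after lipid transfection of siRNA. One group received Control siRNA and the other YAP Smartpool siRNA, a pool of siRNAs to Yap1, with 3 libraries in each group numbered 1 to 3. SC4 is a single cell line. Whether replicates were separate cultures is not in the labels, so the p-values given here reflect how far these libraries scatter, and that scatter may be technical. Yap1 stood at 4749.6, 5732 and 4751 normalized counts in control libraries 1, 2 and 3, and at 936, 571 and 475 in YAP siRNA libraries 1, 2 and 3, a log2 fold change of −3.00 (SE 0.184, limma adjusted p = 4.5e-04 in the paired fit described below, 0.118 unpaired).

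Collagens are trimers of chains that carry glycine at regular steps along a triple helix. Fibrillar collagens such as types I, III and V build the fibrils of connective tissue, type IV forms the network of the basement membrane that Schwann cells lay down around themselves, and type VI forms beaded filaments that Schwann cells and nerve fibroblasts also secrete. In the endoplasmic reticulum prolyl and lysyl hydroxylases modify the chains, and Serpinh1 (HSP47) holds the folded trimer. Outside the cell lysyl oxidases convert lysine and hydroxylysine side chains to aldehydes from which crosslinks form.

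Replicate 1 of both groups held far less collagen RNA than replicates 2 and 3. All 44 collagens together made up 1.64%, 3.16% and 3.33% of normalized counts in control libraries 1, 2 and 3, and 1.40%, 2.58% and 2.54% in YAP siRNA libraries 1, 2 and 3. The YAP siRNA library was the lower of each same-numbered pair, while the groups overlapped through replicate 1. Over the 37 genes, the median level of replicate 1 was 44.9% of the mean of replicates 2 and 3 under control siRNA and 59.5% under YAP siRNA, against 99.2% and 98.6% over all 12820 genes tested. In these bulk samples fewer cells that make collagen and less collagen RNA per cell cannot be told apart.

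The defining Schwann cell genes Sox10 and S100b were scarce for a line labelled Schwann, with means of 4.36 and 9.25, while 8 of 10 markers on the Schwann list passed a mean of 10, led by Pmp22, Ngfr and Mbp. The summed Schwann markers ranged from 7750 to 10408 under control siRNA and from 7722 to 15442 under YAP siRNA. Of the 8 that were tested 2 rose and 1 fell in the paired fit described below, where 8.32% of all tested genes rose and 8.96% fell. Pmp22, which makes up much of that sum, had 1130.5, 5149 and 5537 under control siRNA and 2208, 11071 and 10617 under YAP siRNA. Ngfr went the other way, from 4621, 2036 and 1790 to 3486, 1051 and 876. Of 9 fibroblast markers 7 passed a mean of 10, Fap was at 0 in every library and Lum had a mean of 1.20. Their sum, led by Pdgfrb, Postn and Pdgfra, ranged from 24894 to 33206 under control siRNA and from 32837 to 49977 under YAP siRNA. Of the 7 that were tested 3 rose and 1 fell in the paired fit. Dcn went down, from 36.4, 186 and 207 under control siRNA to 13.2, 102 and 125 under YAP siRNA. Of 4 epithelial markers 3 passed a mean of 10, with Cdh1 at a mean of 2.73. Their sum was 267 to 498 under control siRNA and 79.3 to 93.4 under YAP siRNA. Macrophage (4 of 6 passing) and endothelial (4 of 5) markers summed to at most 347 in any library, with Itgam at a mean of 0.537 and Tek at 0.330. The part of these markers in the collagen results was not tested.

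With same-numbered libraries paired, 14 of the 37 genes fell under YAP siRNA and 2 rose, while 0 passed without pairing. Those that fell included chains of types I, III, IV, VI and VII, and those that rose were Plod2 and Col8a2. Differences are given as log2 fold changes, YAP siRNA minus control, on log2(normalized count + 1), which understates the change of genes with few counts. Without pairing limma called 0 of the 37 genes at an adjusted p under 0.05, as it called 0 (0%) of all 12820 genes, and 6 of the 37 had an unadjusted p under 0.05, against 1558 of 12820. Same-numbered libraries deviated together, most clearly replicate 1, so a fit that pairs them, with the number as a block, is given beside the unpaired one. Replicates 2 and 3 were hardly told apart. Departures of control replicate 2 correlated at 0.705 with YAP siRNA replicate 2 and at 0.552 with YAP siRNA replicate 3. Those of control replicate 3 correlated at 0.516 and 0.532 with the same libraries. The words rose and fell are used below only of genes that passed in this paired fit. In that fit 14 of the 37 fell and 2 rose, where 8.96% of all tested genes fell and 8.32% rose (17.3% in either direction). The unpaired adjusted p of these 16 lay between 0.189 (Col17a1) and 0.818 (Col3a1). The log2 fold change was below 0 for 32 of the 37 (86.5%, against 49.0% of all tested genes), with a median of −0.46 against 0.0094. Col5a2 alone of these 32 turned with quantile scaling, to 0.032. In 22 genes (59.5%, against 27.1% of all) the YAP siRNA library was the lower in all 3 pairs. The groups did not overlap, with YAP siRNA lower, for 6 genes (9.49% of all tested genes), and for 1 gene, Plod2, with YAP siRNA higher (9.47% of all).

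Without replicate 2 of both groups only Col4a5, Col7a1 and Col8a2 of the 37 passed. Of all 12820 genes 300 did, against 2216 with every pair. In paired limma without a mean-variance trend 0 of the 16 passed, where 30 of all 12820 genes did. With no filter on low genes 0 of the 16 passed, and 0 of all genes did. Over the settings with this pairing the highest limma adjusted p of a called gene lay between 0.207 and 1.00. Leaving out replicate 1 of both groups, a choice made after seeing the data, gave 2 genes higher and 20 lower without any pairing, and all 16 were among them. That setting called 4018 of all 12820 genes, against 0 with all libraries.

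Sequence upstream of the genes was looked at for the core letters bound by TEAD factors, the DNA-binding partners of YAP. RefSeq windows (GRCm38.p6) from 250 to 11 bases before a start were found for 27 of the 37 genes, and GGAATG or its reverse complement CATTCC stood in a window of 4 of them, Col18a1, Col20a1, Col3a1 and Col6a2. Of 32851 such windows of all genes 12.2% held it. Of the 13 called genes with a window, 2 held it, Col18a1 and Col3a1. A match of 6 letters is a description and not a bound site. CCAAT or ATTGG stood in a window of 12 of the 27 genes and in 33.0% of all windows. A gene was counted if any of its windows matched, and some genes had several, so gene counts and window shares are unlike measures.

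The windows of 4 called genes that contain no annotated exon are printed 5′ to 3′ on the gene's strand, to show a fallen gene with the TEAD letters (Col3a1, chr1:45311288-45311527, plus strand) beside fallen genes without them (Col7a1, chr9:108953336-108953575, plus strand, and Loxl4, chr19:42612817-42613056, minus strand) and a risen one without them (Col8a2, chr4:126286544-126286783, plus strand). Capitals mark the letters searched for on either strand. The TEAD match in Col3a1 begins 168 bases before the start, and the CCAAT match in Col7a1, on its reverse strand, 249 bases before it.
Col3a1: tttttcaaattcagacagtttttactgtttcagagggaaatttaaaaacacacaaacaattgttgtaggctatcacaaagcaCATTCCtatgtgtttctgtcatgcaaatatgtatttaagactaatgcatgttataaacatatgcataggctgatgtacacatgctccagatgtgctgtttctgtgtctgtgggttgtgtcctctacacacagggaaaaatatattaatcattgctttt
Col7a1: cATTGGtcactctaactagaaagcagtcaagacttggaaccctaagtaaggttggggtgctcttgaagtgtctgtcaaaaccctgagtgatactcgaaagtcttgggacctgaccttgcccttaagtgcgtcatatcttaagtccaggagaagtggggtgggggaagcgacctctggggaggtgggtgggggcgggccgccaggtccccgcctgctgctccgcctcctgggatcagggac
Loxl4: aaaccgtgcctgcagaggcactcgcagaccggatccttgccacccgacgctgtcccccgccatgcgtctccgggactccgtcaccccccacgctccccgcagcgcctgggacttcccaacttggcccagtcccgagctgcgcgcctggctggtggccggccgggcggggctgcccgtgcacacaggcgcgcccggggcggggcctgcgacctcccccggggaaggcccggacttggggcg
Col8a2: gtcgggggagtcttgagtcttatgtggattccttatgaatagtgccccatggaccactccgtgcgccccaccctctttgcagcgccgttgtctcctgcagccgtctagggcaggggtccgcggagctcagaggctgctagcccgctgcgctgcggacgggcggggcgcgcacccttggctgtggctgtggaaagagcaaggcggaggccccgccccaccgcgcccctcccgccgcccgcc
The Loxl4 window is 75.8% G and C and that of Col3a1 34.2%.

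**Figure D1:**
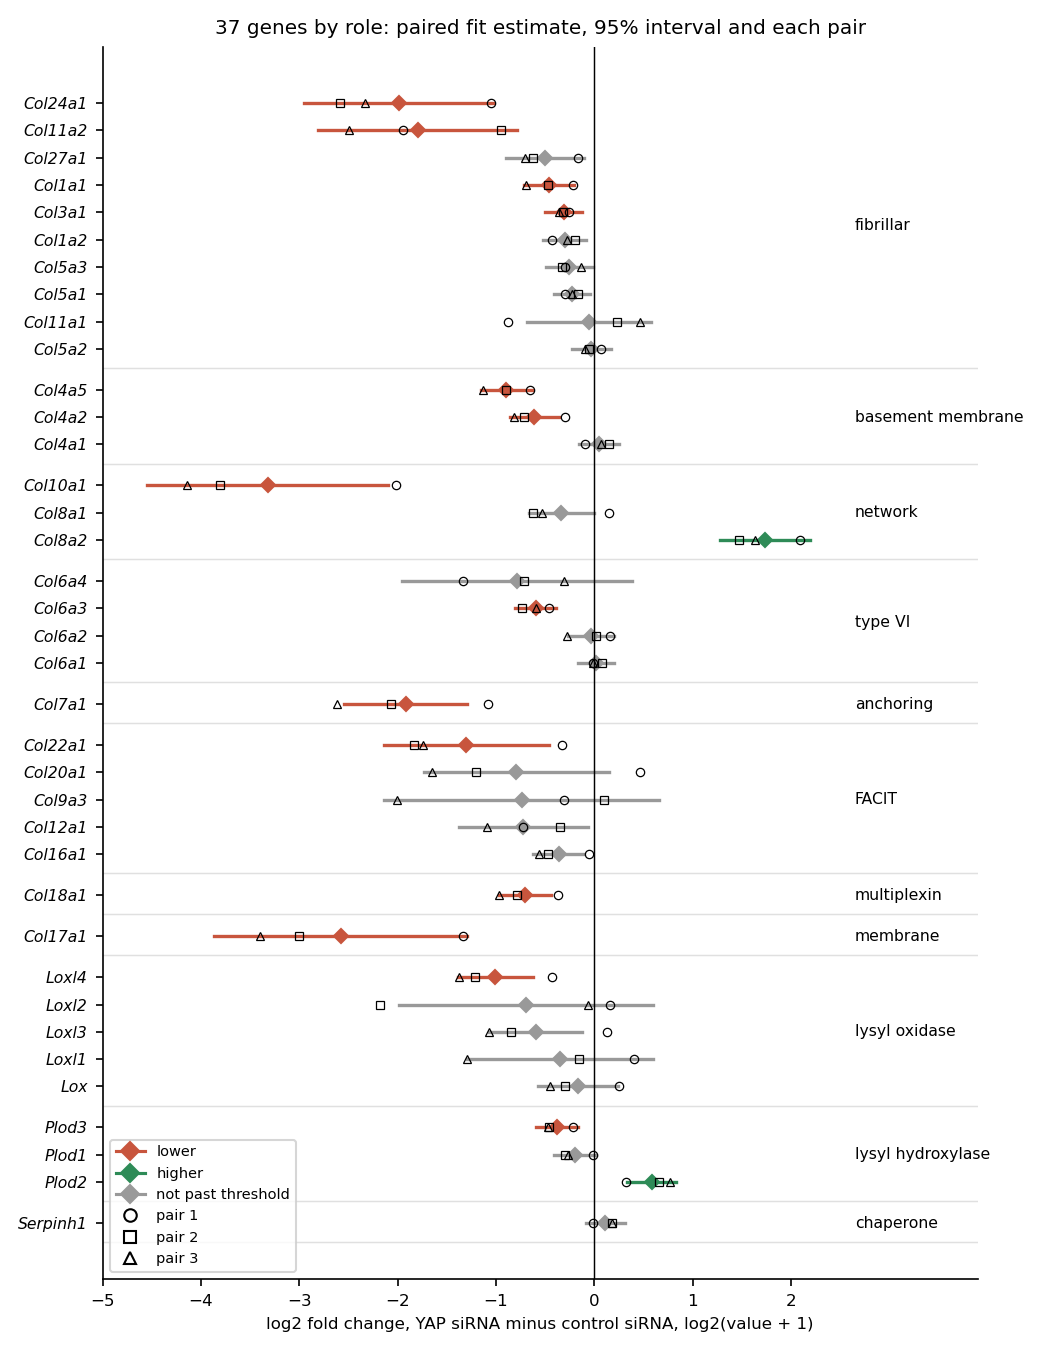
Log2 fold change (YAP siRNA minus control siRNA, horizontal axis) of the 37 genes, grouped by role; filled diamonds and bars are the paired limma estimate and its 95% interval, open symbols the 3 same-numbered pairs. The 14 genes that fell and 2 that rose are coloured; Col10a1 lies farthest to the left at −3.32 and Col8a2 farthest to the right at 1.73.

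Levels of different genes can be set side by side only per length, and here each mean was divided by the length of the gene's merged exons in kilobases. That length counts the exons of every annotated transcript, so it can exceed that of the RNA made. In the controls Col1a1 had the highest level of the 37 by this measure, at 32323 normalized counts per kb, ahead of Col1a2 at 15166, Serpinh1 at 14427, Col5a2 at 6462 and Col6a1 at 6118. Next came Col3a1, Col4a2, Col4a1 and Col6a3, between 5307 and 5496 per kb, whose order cannot be read given the spread of replicates. Before division the control means of Col1a1 and Col1a2 were 212139 and 188451, and their merged exons measured 6.563 and 12.426 kb. The gap between these chains per kb thus rests largely on the lengths. After YAP siRNA Col1a1 was at 22595 per kb, Serpinh1 at 15768 and Col1a2 at 12495. The order of Serpinh1 and Col1a2 in the controls cannot be read given the spread of replicates, and neither gene passed in the paired fit. The 6 called genes with the largest log2 fold changes were all far less abundant. Per kb, Col10a1 went from 52.9 to 3.11, Col17a1 from 6.63 to 0.970, Col24a1 from 16.8 to 3.08, Col7a1 from 53.3 to 12.0, Col11a2 from 8.39 to 2.57 and Col8a2 from 37.4 to 112.

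**Figure D2:**
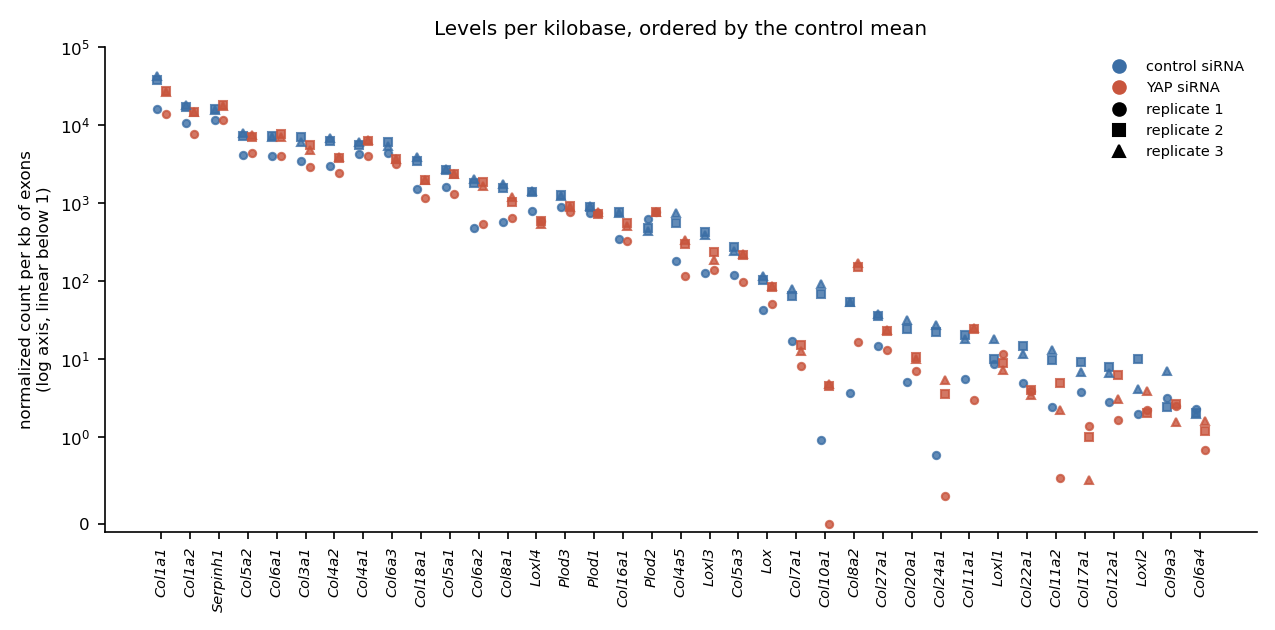
Normalized counts per kilobase of merged exons (log axis, linear below 1) in each library for the 37 genes, ordered by the control mean; blue is control siRNA, red YAP siRNA, and the marker shape gives the replicate number. Replicate 1 (circles) lies below the others for most collagens in both groups, and levels run from about those of Col1a1 (control mean 32323) to those of Col6a4 (control mean 2.11).

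Among the fibrillar collagens 4 of 10 fell and 0 rose, where 8.96% of all tested genes fell and 8.32% rose. All 10 had a log2 fold change below 0 (49.0% of all tested genes), except that Col5a2 was at 0.032 with quantile scaling. Col1a1 encodes the main chain of type I collagen. It had 104989, 251305 and 280123 normalized counts in control libraries 1, 2 and 3, and 90209.6, 181309 and 173345 in YAP siRNA libraries 1, 2 and 3. The groups overlapped, because control replicate 1 lay below YAP siRNA replicates 2 and 3, but the YAP siRNA library was the lower in each pair. Its log2 fold change was −0.46 (SE 0.111, limma adjusted p = 0.0260 paired, 0.777 unpaired). With quantile scaling the paired adjusted p was 0.101, so this call ended.

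Col1a2, the partner chain of type I collagen, had 130028, 211874 and 223449 under control siRNA and 96669, 185061 and 184059 under YAP siRNA. It was lower in each pair and did not pass (log2 fold change −0.30, limma adjusted p = 0.0617 in the paired fit). Col3a1, the chain of the homotrimeric type III collagen, had 33643, 68093 and 60096 under control siRNA and 28239, 54489 and 46849.9 under YAP siRNA. It fell by 0.31 on the log2 scale (SE 0.0831, limma adjusted p = 0.0366 in the paired fit), again with overlapping groups.

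The rarer fibrillar chains Col24a1 and Col11a2 had larger changes. Col24a1 had 6.07, 168 and 209 under control siRNA and 2.40, 27.2 and 40.7 under YAP siRNA, a log2 fold change of −1.99 (SE 0.421, limma adjusted p = 0.0166 in the paired fit). Both replicates 1 were near the bottom of the scale, and the treated replicates 2 and 3 lay far under their controls. Col11a2 had 16.7, 67.0 and 89.4 under control siRNA and 3.61, 34.3 and 15.1 under YAP siRNA (log2 fold change −1.79, SE 0.443, limma adjusted p = 0.0285 in the paired fit).

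Type V chains, which set fibril width by joining type I fibrils, did not pass. Col5a2 was at 61975 ± 19555 under control siRNA and 60016 ± 16151 under YAP siRNA (SD, n = 3). The paired fit put its difference at −0.03 on the log2 scale, between −0.23 and 0.17 at 95% confidence. Col5a1 and Col5a3 had −0.23 and −0.25, with limma adjusted p = 0.0873 and 0.131 with this pairing. Col27a1 had −0.50 (limma adjusted p = 0.0837 in the paired fit). Col11a1 was lower in the first pair and higher in pairs 2 and 3, at −0.06 with an interval of −0.69 to 0.57.

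Within type IV collagen, the sheet of the basement membrane, Col4a2 passed and Col4a1 did not. Col4a2 had 19549, 41550.3 and 45573 in control libraries 1, 2 and 3, and 15889, 25346 and 25982 under YAP siRNA. Col4a1 had 32112, 41874 and 44931 under control siRNA and 30197, 46590.3 and 47270.4 under YAP siRNA. Col4a2 was thus lower in each pair, while Col4a1 was slightly lower in the first pair and higher in the others. Col4a2 fell by 0.61 on the log2 scale (SE 0.110, limma adjusted p = 0.00973 paired, 0.581 unpaired). Col4a1 had 0.05 with a 95% interval of −0.16 to 0.25.

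These chains form a common heterotrimer, and their genes lie head to head: the RefSeq starts are 21 bases apart on opposite strands, and 22 bases of their annotated exons overlap. The ratio of Col4a2 to Col4a1 was 0.609, 0.992 and 1.01 in control libraries 1, 2 and 3, and 0.526, 0.544 and 0.550 under YAP siRNA. The groups did not overlap, but control replicate 1 sat close to the treated libraries. The log2 ratio differed by −0.65 (exact permutation test, two-sided, p = 0.1, the smallest that 3 against 3 allows; 0.45 adjusted over 9 chain pairs). Without replicate 1 the difference was −0.88.

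Col4a5, an X-linked chain of a minor type IV trimer, had 1228, 3718 and 4941 under control siRNA and 781, 2001 and 2253 under YAP siRNA. It fell by 0.89 on the log2 scale (SE 0.114, limma adjusted p = 0.00274 paired, 0.644 unpaired), with −0.65, −0.89 and −1.13 in pairs 1, 2 and 3. The other basement membrane chains, Col4a3, Col4a4 and Col4a6, had means of at most 3.57 and were not tested.

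The chains of short network-forming collagens went in opposite directions. Col8a2, the minor chain of type VIII collagen found under endothelia and in Descemet's membrane, had 16.7, 242 and 245 in control libraries 1, 2 and 3, and 74.5, 674 and 761 under YAP siRNA. Each treated library exceeded its numbered control, and treated replicate 1 stayed below control replicates 2 and 3. Its log2 fold change was 1.73 (SE 0.201, limma adjusted p = 0.00213 paired, 0.680 unpaired). Its partner Col8a1 had 4493, 12298 and 13658 under control siRNA and 4999.6, 8012 and 9432 under YAP siRNA, at −0.33 (limma adjusted p = 0.139 in the paired fit).

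Col10a1, the marker chain of hypertrophic cartilage, had 3.03, 210.5 and 283 under control siRNA and 0, 14.1 and 15.1 under YAP siRNA. Almost all its signal came from control replicates 2 and 3, and the treated mean was 5.88% of that in the controls. It fell by 3.32 on the log2 scale (SE 0.536, limma adjusted p = 0.00657 paired, 0.554 unpaired).

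Among the type VI genes only Col6a3 passed, and its ratio to Col6a1 had overlapping groups (exact permutation p = 0.2, 0.54 adjusted over 9 chain pairs). Col6a3, the long chain, had 52616, 72726 and 65106 under control siRNA and 38134, 43693 and 43287 under YAP siRNA, so that every treated library was below every control. It fell by 0.60 on the log2 scale (SE 0.0905, limma adjusted p = 0.00543 paired, 0.250 unpaired). Col6a1 and Col6a2, which encode the short chains of the same trimer, had 0.02 (95% interval −0.17 to 0.20) and −0.03 (−0.26 to 0.20) in the paired fit. Col6a4, a relative of the long chain that is rare here, had 19.7, 17.1 and 17.0 under control siRNA and 7.21, 10.1 and 13.6 under YAP siRNA, without overlap, but it did not pass (limma adjusted p = 0.314 in the paired fit).

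The only tested anchoring, transmembrane and multiplexin collagens, Col7a1, Col17a1 and Col18a1, each fell, where 8.96% of all tested genes did. Each of these classes is thus read from a single gene. Col7a1, the chain of anchoring fibrils, had 176, 663 and 807 under control siRNA and 82.9, 157 and 131 under YAP siRNA. All treated libraries lay below all controls, and the treated mean was 22.6% of that in the controls. It fell by 1.92 on the log2 scale (SE 0.274, limma adjusted p = 0.00433 paired, 0.291 unpaired).

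Col17a1, a transmembrane collagen of hemidesmosomes, had 22.8, 55.3 and 41.5 under control siRNA and 8.41, 6.06 and 3.01 under YAP siRNA, again without overlap, with a log2 fold change of −2.58 (SE 0.563, limma adjusted p = 0.0182 in the paired fit). The epithelial marker Krt18 had 184, 338 and 373 under control siRNA and 49.3, 59.5 and 60.3 under YAP siRNA. Krt8 and Epcam were also lower in each pair. Cdh1, with a mean of 2.73, went the other way, from 3.03, 0.780 and 0 to 6.01, 2.02 and 4.52. The part of these markers in the Col17a1 result was not tested. Col18a1, a basement membrane proteoglycan and the precursor of endostatin, was abundant, at 10478, 24099 and 27192 under control siRNA and 8102, 14029 and 13908 under YAP siRNA. It fell by 0.71 on the log2 scale (SE 0.116, limma adjusted p = 0.00688 in the paired fit).

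Of the FACIT collagens, which sit on the surface of fibrils, 1 of 5 fell, where 8.96% of all tested genes did. Col22a1, known from muscle-tendon junctions, had 45.5, 136 and 108 under control siRNA and 36.1, 37.3 and 31.6 under YAP siRNA, with no overlap (log2 fold change −1.30, SE 0.367, limma adjusted p = 0.0433 in the paired fit). The most abundant of this class, Col16a1, had 2313, 5143 and 5048 under control siRNA and 2226, 3725 and 3425 under YAP siRNA, at −0.36 (limma adjusted p = 0.0621 in the paired fit). Col12a1, Col20a1 and Col9a3 had log2 fold changes of −0.72, −0.79 and −0.74, with intervals of −1.38 to −0.07, −1.74 to 0.15 and −2.14 to 0.66, and none passed.

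Of the lysyl oxidases 1 of 5 fell, where 8.96% of all tested genes did. The gene that fell was the most abundant of them per kb. Loxl4 had 3309.5, 5750.5 and 5921 in control libraries 1, 2 and 3, and 2464, 2473 and 2285 under YAP siRNA. The treated libraries were nearly equal and below every control. Its log2 fold change was −1.01 (SE 0.166, limma adjusted p = 0.00692 paired, 0.215 unpaired), and pair 1 had −0.43 against −1.22 and −1.37 in pairs 2 and 3. Per kb it went from 1185 to 571 normalized counts.

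Loxl3, whose exons overlap those of Htra2 on the opposite strand, had 586, 1935 and 1815 under control siRNA and 641, 1076 and 862 under YAP siRNA. It was higher in pair 1 and lower in pairs 2 and 3, and did not pass (log2 fold change −0.60, limma adjusted p = 0.0821 in the paired fit). Lox, the founding enzyme of the family, had 202, 495 and 555 under control siRNA and 240.4, 402 and 407 under YAP siRNA, with the same pattern over the pairs (−0.17, 95% interval −0.57 to 0.24). Loxl1 and Loxl2 were rare, between 10.6 and 60.4 in every library.

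The lysyl hydroxylases split. Plod2, which hydroxylates lysines of the telopeptides (the chain ends where crosslinks start) and overlaps Gm38391 on the opposite strand, had 3322, 2599.7 and 2391 under control siRNA and 4147, 4103 and 4093 under YAP siRNA. All treated libraries exceeded all controls, and replicate 1 was the highest control. It rose with a log2 fold change of 0.58 (SE 0.108, limma adjusted p = 0.0103 paired, 0.238 unpaired). Plod3, which can also add sugars to hydroxylysine and whose exons overlap those of Znhit1 on the opposite strand, had 4021, 5664 and 5513 under control siRNA and 3466, 4117 and 3985 under YAP siRNA, and fell by 0.38 on the log2 scale (SE 0.0926, limma adjusted p = 0.0269 in the paired fit). Plod1, which acts on the helix, had −0.20 with an interval of −0.41 to 0.02.

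The chaperone gene Serpinh1 had 28713, 38868 and 38155 under control siRNA and 28459, 43995 and 43108 under YAP siRNA. It did not pass, at 0.11 with a 95% interval of −0.08 to 0.31 (limma adjusted p = 0.387 in the paired fit).

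**Figure D3:**
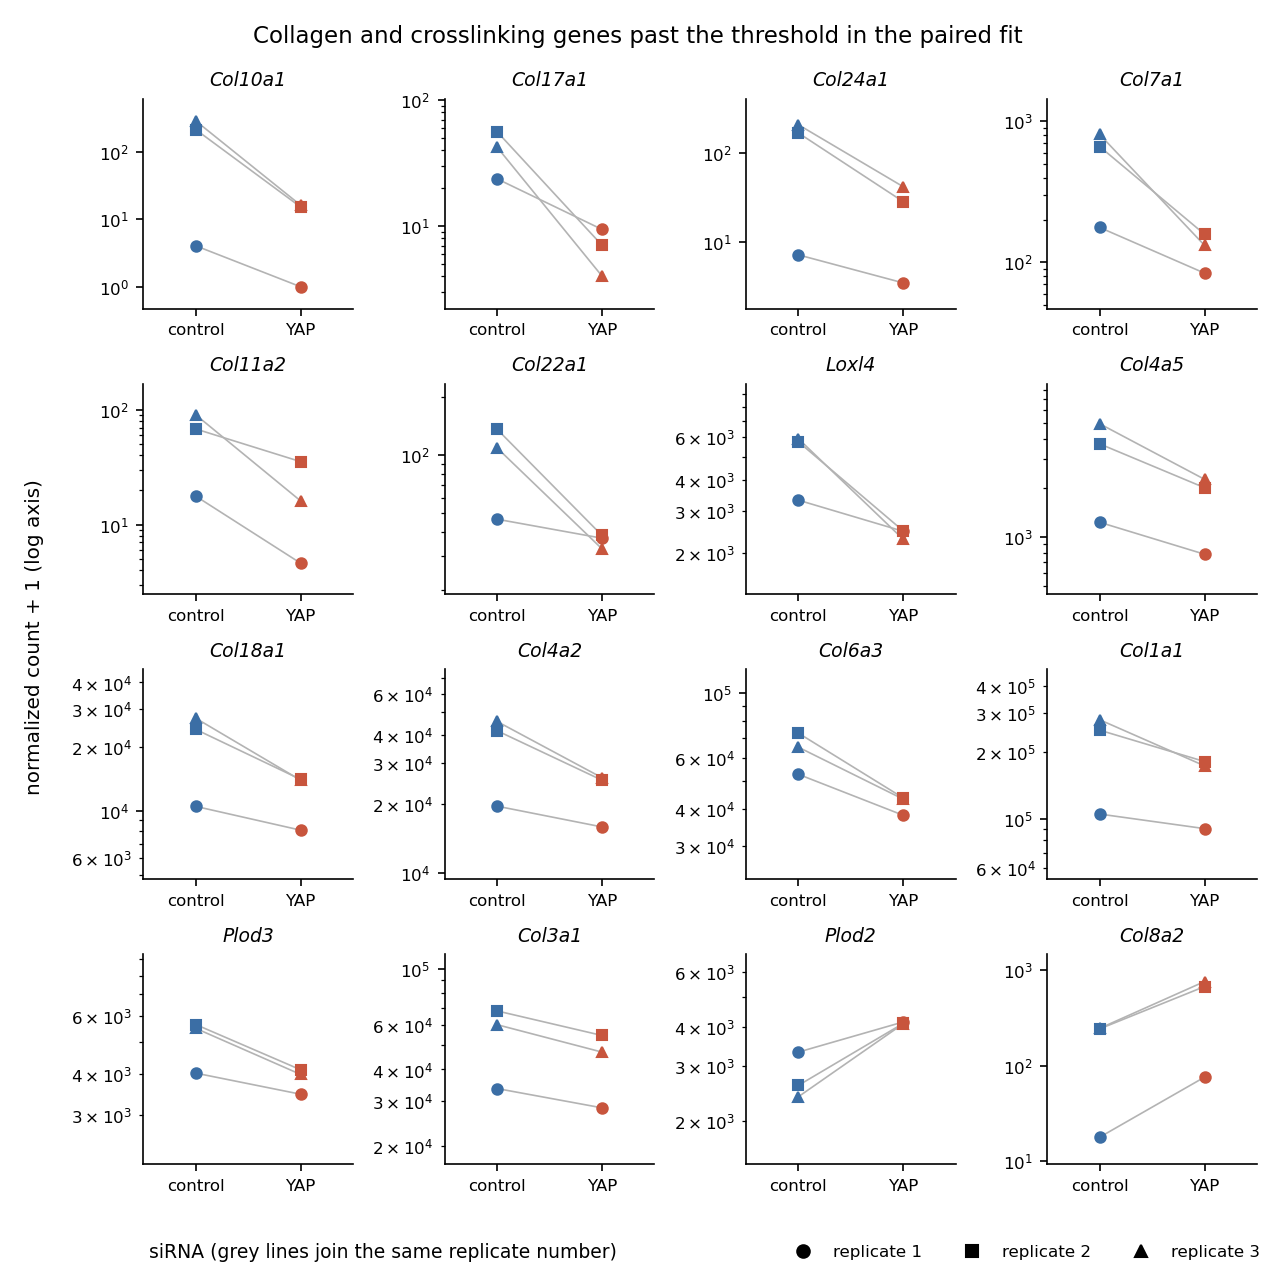
Normalized count plus 1 (log axis, a separate range in each panel) of the 16 genes past the threshold in the paired fit, in 3 control siRNA libraries (blue) and 3 YAP siRNA libraries (red); grey lines join libraries of the same replicate number. Every line falls for 14 genes and rises for Plod2 and Col8a2, and replicate 1 (circles) starts lowest for all control groups except that of Plod2.

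Chains of related collagens were compared by their ratio in each library, in which 1 scaling factor per library cancels. The permutation test compares the groups without using the pairing of libraries. Of 9 pairs, Col4a2 to Col4a1 and Col5a2 to Col5a1 had groups that did not overlap (exact permutation p = 0.1 and 0.45 after adjustment for each). Col5a2 to Col5a1 was 2.95, 3.15 and 3.30 under control siRNA and 3.80, 3.39 and 3.59 under YAP siRNA, higher in each pair, by 0.20 in the log2 mean. The ratio of Col6a3 to Col6a1 was 2.99, 2.29 and 2.10 under control siRNA and 2.18, 1.31 and 1.40 under YAP siRNA, lower in each pair with overlapping groups (exact permutation p = 0.2).

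Col8a2 to Col8a1 was at most 0.0843 in any library, at 0.00394, 0.0197 and 0.0180 under control siRNA and 0.0151, 0.0843 and 0.0808 under YAP siRNA. It was higher in each pair, by a log2 difference of 2.07 with an SD of 0.116 over the 3 pairs, while the unpaired test, in which replicate 1 of each group lies far below the others, gave an exact permutation p = 0.3. Col4a5 to Col4a1 was lower in each pair, by 0.94 in the log2 mean (exact permutation p = 0.3). The type I ratio, Col1a2 to Col1a1, was 1.24, 0.843 and 0.798 under control siRNA and 1.07, 1.02 and 1.06 under YAP siRNA, lower in pair 1 and higher in pairs 2 and 3 (exact permutation p = 0.4).

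**Figure D4:**
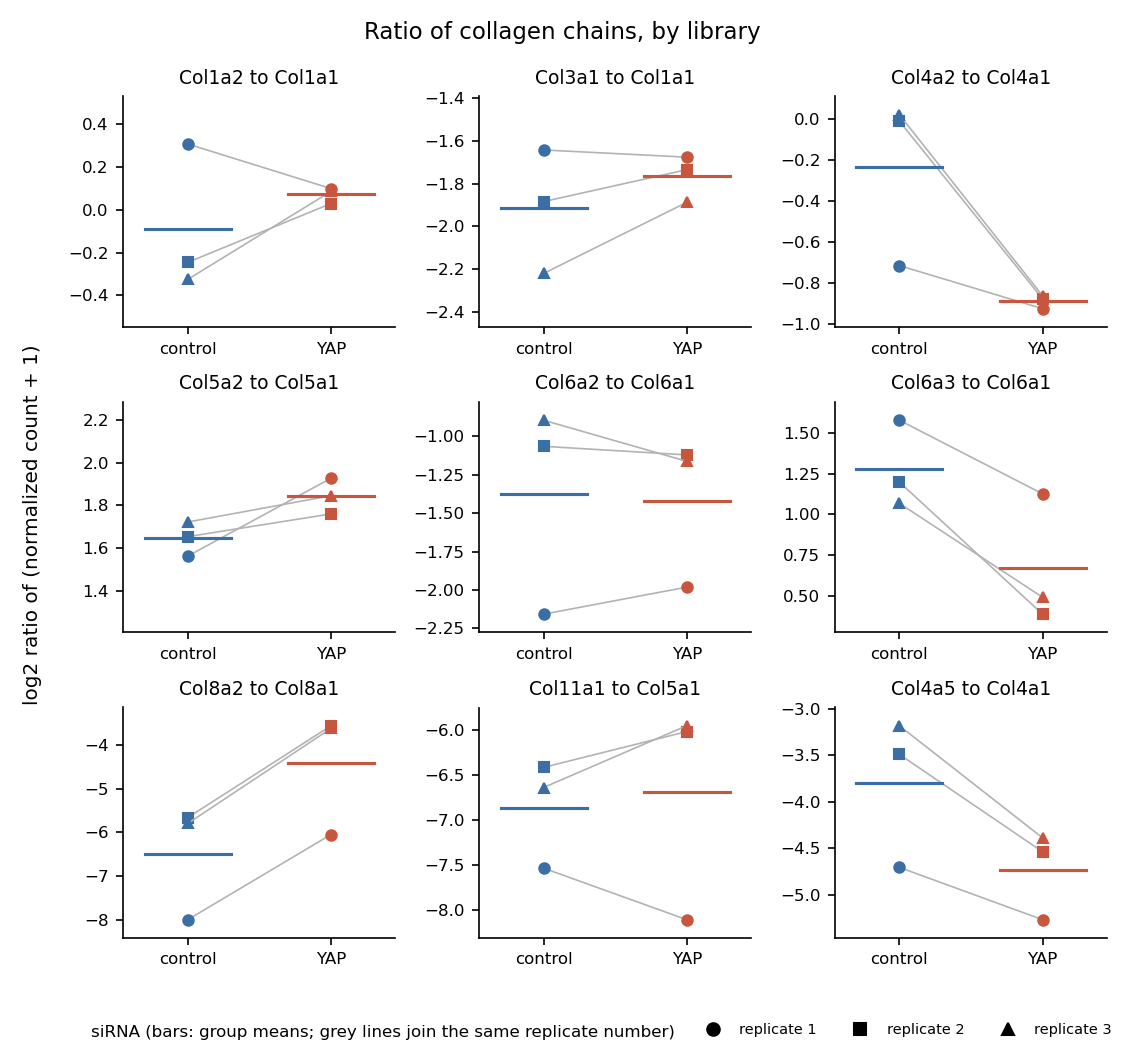
Log2 ratio of normalized counts (plus 1) of 9 pairs of chains in each library, control siRNA in blue and YAP siRNA in red, with bars for the group means and grey lines joining the same replicate number. The Col4a2 to Col4a1 panel shows control replicates 2 and 3 near 0 (ratios 0.992 and 1.01) and all treated libraries with control replicate 1 below −0.7.

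Genes that act on collagen before and after secretion were read from the same fit. Of 23 tested genes of collagen synthesis and export, 6 fell and 1 rose, where 8.96% of all tested genes fell and 8.32% rose. The median log2 fold change of the 23 was −0.31 against 0.0094 over all tested genes. Lepre1 (now P3h1), a prolyl 3-hydroxylase, had 2615, 3816 and 4005 under control siRNA and 1688, 2088 and 1896 under YAP siRNA, without overlap, and fell by 0.86 on the log2 scale (SE 0.109, limma adjusted p = 0.00268 in the paired fit). Bmp1, the proteinase that removes the C-propeptides of fibrillar procollagens, fell from 11456 ± 4635 to 5210.4 ± 312 (SD, n = 3; log2 fold change −1.04). P4ha1, a catalytic subunit of prolyl 4-hydroxylase, fell by 0.51, while its relative P4ha3 rose with a log2 fold change of 0.74. Pcolce2, an enhancer of that proteinase, fell by 0.79. Pcolce, an enhancer of the same kind, and Fkbp10, a collagen chaperone, also passed as lower, Fkbp10 at 12.1, 301 and 346 under control siRNA and 13.2, 36.3 and 22.6 under YAP siRNA.

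Of 13 tested collagen receptors and turnover genes, 5 fell and 1 rose, where 8.96% of all tested genes fell and 8.32% rose. The median log2 fold change of the 13 was −0.43. Itga11, an integrin subunit that binds fibrillar collagen, rose with a log2 fold change of 0.92 (SE 0.164, limma adjusted p = 0.00908 in the paired fit), whereas Itga10, which also binds collagen, fell by 0.87. Ddr2, a receptor kinase for fibrillar collagen, fell by 0.43, and the endocytic collagen receptor gene Mrc2 fell by 0.93. Mmp13, a collagenase, fell from 142 ± 96.9 to 24.7 ± 13.8 (SD, n = 3; log2 fold change −2.21). Mmp9, a gelatinase, passed as lower at −0.55. Without replicate 2 of both groups 1 gene of the synthesis list and 0 of the receptor list passed, where 300 of all 12820 genes did. Unpaired, 0 genes of either list passed.

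In annotated 3′ UTRs, the letters CTACATA, whose carriers are lower as a class in these libraries and which were chosen in the same data for that reason, were present in 4 of the 37 genes: Col5a1, Col12a1, Col17a1 and Col22a1. Of these Col17a1 and Col22a1 fell and 0 rose, with a median log2 fold change of −1.01 over the 4. Over all 1318 tested carriers 202 fell and 97 rose, with a median of −0.050. The 33 genes without the letters had 12 that fell and 2 that rose and a median of −0.38. Over all 10818 tested genes without them 926 fell and 947 rose, with a median of 0.014. Because the letters were chosen in these data, whether they have a part in these changes was not tested.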

How the data were processed

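RNA sequencing libraries from SC4 cells were analysed, 3 after control siRNA and 3 after YAP siRNA, grouped by their titles. The deposited table holds a signal for each gene and library, counts that the authors divided by 1 size factor for each library; TopHat2 2.0.9, HTSeq 0.6.1, DESeq 1.14.0 and mm9 stand in the submitters' processing notes, with no annotation, strand setting or filter given in the sources used here. Every value was a whole multiple, within 0.01, of the smallest in its library, and totals in that unit ran from 18025132 to 60078880. That smallest value ran from 0.461 to 1.52 normalized counts; whether it is 1 read was not established for every library. Several genes had overlapping neighbours in GENCODE M21 on the opposite strand, among them Loxl3 with Htra2, Plod3 with Znhit1, Plod2 with Gm38391 and Col4a1 with Col4a2. Reads could not be assigned by strand here, and the values of all such genes are uncertain to that extent.

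Here log2(value + 1) was tested with limma 3.58.1 in R 4.3.3 (mean-variance trend, two-sided, Benjamini-Hochberg over all 12820 genes with a mean of at least 10, threshold 0.05), without a covariate as the main design and with the replicate number as a block as the other. Over genes, same-numbered libraries shared their departures from the group mean (r = 0.788, 0.705 and 0.532 for numbers 1, 2 and 3), which by the criterion used pairs them; no label names a shared day or culture. Replicate 2 also correlated at 0.552 with replicate 3, so the check tells mainly replicate 1 apart. Exact permutation tests over the 6 libraries, without pairing, were used for chain ratios. Exon lengths and 3′ UTRs came from GENCODE M21 and promoter windows from RefSeq (GRCm38.p6), on another build than the files. Every gene with a mean of at least 10 is described; of the other lists up to 4 passing genes each way with the smallest p, with Pcolce, Fkbp10 and Mmp9 added after their values were seen. The genes and lists were chosen with earlier results of these data known. One gene of the Schwann cell marker list is not reported here and was left out of its count and sums. Alternatives were other pseudocounts, filters, scalings, thresholds and variance models, and leaving out libraries.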

Additional observations from a re-analysis of the deposited data

How the results depend on the processing

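Of the 37 genes, 25 kept their direction in every setting tried, among them all 16 that passed with the replicate block. Without the block, 0 of the 37 genes passed in any setting that kept all libraries, where at most 3 of all genes did. Without 1 library and without the block the counts ranged from 0 to 1 higher and from 0 to 3 lower for the collagen and crosslinking genes, the calls (Col7a1, Col22a1, Loxl4 and Plod2) coming without control replicate 1; from 0 to 5 lower for the synthesis and export genes; and from 0 to 1 lower for the receptor and turnover genes. Without replicate 1 of both groups, added after seeing the data and without the block, they were 2 and 20, 1 and 12, and 1 and 8, with 4018 of all 12820 genes called.

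With the replicate block, the collagen and crosslinking genes gave 2 higher and 14 lower, also with pseudocounts of 0.5 and 10 and with libraries scaled to one total; 2 and 12 with a filter of 50, which removes genes; 2 and 13 with quantiles; and 1 and 7 at an adjusted p under 0.01. The synthesis list gave 1 higher in each of these and 6 lower, except 5 with a filter of 50, 5 with one total and 2 under 0.01. The receptor list gave 1 and 5, and 1 and 1 under 0.01. Of all genes tested, 2216 were called with the block, 2190 and 2235 with pseudocounts of 0.5 and 10, and 2253 with one total. A filter of 50 gave 2152 calls over all genes, quantiles 2349, and the threshold of 0.01 left 619. Without a trend or without a filter 0 passed in each list with the block, where 30 and 0 of all genes passed. The cause was not tested. Leaving out a pair with the block gave 1 to 2 higher and 2 to 24 lower for the collagen and crosslinking genes (with 5596, 300 and 1128 of all 12820 genes called without replicates 1, 2 and 3), 0 to 1 and 1 to 14 (4 without replicate 3) for synthesis, and 0 to 1 and 0 to 8 for receptors. Without replicate 2, 13 of the 16 genes lost their call, and without replicate 3 Col1a1, Col3a1, Col11a2, Col22a1, Col24a1 and Plod3 did.

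Directions turned, in at least one setting, for 12 genes, none of which passed. Col5a2 turned to 0.032 with quantiles, and Col11a1 to 0.35 without replicate 1 of both groups. Without one library, unpaired, the log2 fold change ranged from −0.65 to 0.94 for Col11a1, −0.55 to 0.010 for Col1a2, −0.098 to 0.26 for Col4a1, −0.48 to 0.059 for Col5a1, −0.32 to 0.22 for Col5a2, −0.62 to 0.14 for Col5a3, −0.26 to 0.31 for Col6a1, −0.70 to 0.54 for Col6a2, −0.62 to 0.10 for Lox and −0.027 to 0.32 for Serpinh1. Without one pair, with the replicate block, it ranged from −0.72 to 0.12 for Loxl1, −1.12 to 0.049 for Loxl2, −0.32 to 0.35 for Col11a1, −0.0078 to 0.11 for Col4a1, −0.077 to 0.0039 for Col5a2, −0.011 to 0.033 for Col6a1 and −0.13 to 0.093 for Col6a2. The difference in log2 ratio ranged from −0.16 to 0.060 for Col6a2 to Col6a1 and from −0.087 to 0.54 for Col11a1 to Col5a1.

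Planned count-based tests (edgeR, DESeq2) were not run, since the smallest step of YAP siRNA replicate 2, 1.01, lies too near 1 for the criterion set for recovering reads. How far depth limits the genes with few counts was not tested.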
